A study of Mus musculus with 11 samples.

Results

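The genes described here are 30 genes of glycolysis and of the cell's answer to low oxygen, measured as RNA in tumours of 4T1, a cell line from a mouse mammary carcinoma. They were chosen by name: 18 encode glucose or lactate transporters, glycolytic enzymes or regulators of those enzymes, and 12 are other known targets of the hypoxia-inducible factors (HIF). All 30 are among the 17181 genes of the expression table, and all 30 are among the 13074 genes that reached 1 FPKM (fragments scaled to transcript length and library size) in at least 2 of the 11 libraries and were tested. Mice carried 4T1 cells under the skin of both flanks, and dosing began when tumours were about 100 mm3 and lasted 12 days. The vehicle group (2 tumours) received neither drug. The OPG-Fc group (3 tumours) received the osteoprotegerin fusion protein OPG-Fc, a decoy receptor that binds the cytokine RANKL, at 10 mg/kg into the peritoneum 3 times a week. The palbociclib group (3 tumours) received this inhibitor of the cell cycle kinases CDK4 and CDK6 by mouth at 30 mg/kg each day, and the combination group (3 tumours) received both drugs at those doses. Every tumour came from wild-type 4T1 cells, a single line. The design text gives NSG hosts, which lack mature lymphocytes, while the series title calls the model syngeneic, and no animal age is given. The labels do not say which tumours shared an animal, so p-values measure the spread between these libraries, and whole tumours were sequenced, so fewer cells of a type and less RNA per cell cannot be told apart.

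Glycolysis splits glucose into pyruvate in the cytosol and yields ATP without oxygen. Glucose enters through carriers such as GLUT1, is trapped by hexokinase, passes the control point at phosphofructokinase and leaves as lactate after lactate dehydrogenase has recycled NADH. When oxygen is low, the prolyl hydroxylases that mark HIF alpha subunits for destruction slow down, and HIF alpha pairs with ARNT. The dimer binds short sites, among them those with the core letters ACGTG, near genes of glucose uptake, glycolysis, mitochondrial removal, pH control and collagen synthesis. Many carcinomas run glycolysis also with oxygen present, and poorly perfused regions of fast-growing tumours are a common setting for HIF targets. The promoters of 4 genes are shown to print that core where it occurs. Of these, the prolyl hydroxylase gene Egln3, the glycolytic enzyme gene Pgk1 and P4ha2, a subunit of collagen prolyl 4-hydroxylase, pass in a comparison below, and the enzyme gene Ldha, which does not, has the most cores. Each line gives the 250 bases before the start of transcription, 5′ to 3′ on the gene's strand, from RefSeq on GRCm38.p6, which is not the authors' build. Capitals mark ACGTG or its complement CACGT.
Egln3, chr12:54203875-54204124, minus strand: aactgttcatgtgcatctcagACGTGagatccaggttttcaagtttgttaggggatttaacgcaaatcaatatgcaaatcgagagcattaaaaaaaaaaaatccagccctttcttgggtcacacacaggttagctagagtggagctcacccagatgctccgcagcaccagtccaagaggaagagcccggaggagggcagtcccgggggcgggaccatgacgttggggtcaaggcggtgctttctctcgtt
Ldha, chr7:46845554-46845803, plus strand: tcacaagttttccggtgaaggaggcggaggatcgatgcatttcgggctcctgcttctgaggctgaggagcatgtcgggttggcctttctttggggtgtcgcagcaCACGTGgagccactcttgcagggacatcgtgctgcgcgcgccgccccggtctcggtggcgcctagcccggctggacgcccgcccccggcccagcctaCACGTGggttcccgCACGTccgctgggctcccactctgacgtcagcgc
Pgk1, chrX:106186850-106187099, plus strand: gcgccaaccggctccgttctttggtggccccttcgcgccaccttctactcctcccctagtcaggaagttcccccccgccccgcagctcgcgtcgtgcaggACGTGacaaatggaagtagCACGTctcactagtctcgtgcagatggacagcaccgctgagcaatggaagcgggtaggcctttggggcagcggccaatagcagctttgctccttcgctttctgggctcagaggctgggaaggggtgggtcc
P4ha2, chr11:54100674-54100923, plus strand: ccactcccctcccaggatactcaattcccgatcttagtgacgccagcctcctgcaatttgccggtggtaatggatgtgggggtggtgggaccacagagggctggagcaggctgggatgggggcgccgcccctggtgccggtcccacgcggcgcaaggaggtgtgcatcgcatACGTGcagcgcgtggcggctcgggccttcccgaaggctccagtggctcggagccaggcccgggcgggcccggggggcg
The core was found 3 times upstream of Ldha, 2 times upstream of Pgk1 and once upstream of each of the others, where a CACGTG, which holds both strands' letters, counts once. It occurred in at least 1 start-site window of 17 of the 28 genes that had one (60.7%), that is in 9 of 18 glycolytic genes and 8 of 10 other HIF targets, against 24.4% of all tested genes with a window. Pdk1, Pfkl and Pfkfb4, which also pass in a comparison below, had no ACGTG or CACGT in their windows, and Bnip3l and Ndrg1 had no entry. Other forms of the site were not searched for. The match is of letters only and says nothing of binding in these tumours.

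The library labelled vehicle 2 stood apart, and it is 1 of the 2 controls. The sum of 9 epithelial marker genes (Epcam, Krt8, Krt18 and others) was 52.98 FPKM there against 2384 to 3577 in the other 10 libraries, and the sum of 10 B and T cell markers was 6796 against 11.6 to 865. None of the 9 epithelial markers was at 0 in it. Vehicle 2 lay below all 10 other libraries for 26 of the 30 genes, against 29.3% of all genes tested, and above all of them for Pfkp and Pfkfb3. Egln3, for instance, was at 4.87 FPKM in vehicle 2 and at 57.3 or more in every other library. Car9, the carbonic anhydrase that is a standard HIF target and is not among the 30, was at 1.03 FPKM against 60.5 to 123. Each result is therefore given with all 11 libraries and without vehicle 2. Summed FPKM over all genes was 576699 to 646150 in the OPG-Fc libraries, 651306 to 754480 with palbociclib and 704882 to 864670 in the combination, so values are not on one total, and effects of rescaling are given where they matter.

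**Figure D1:**
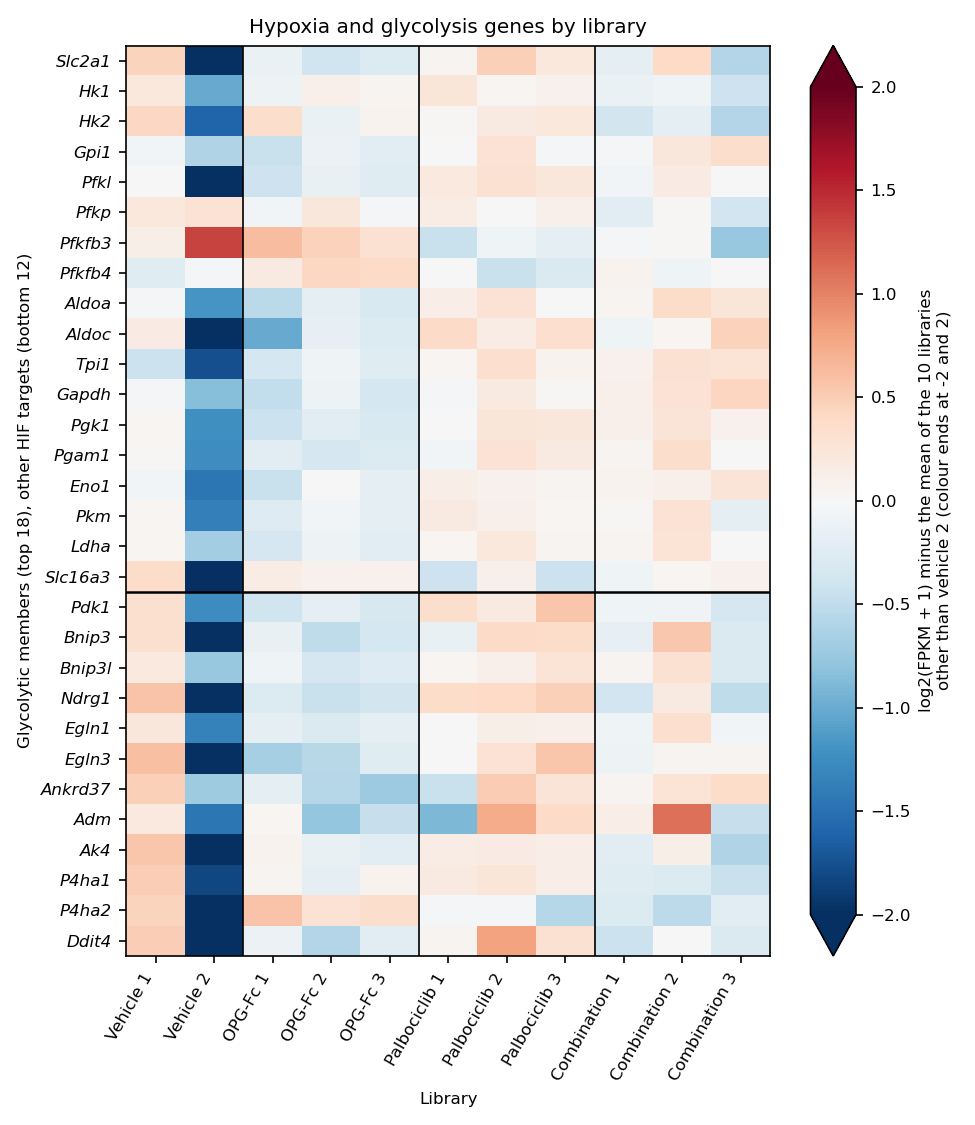
Heat map of the 30 genes (rows; 18 glycolytic above the line, 12 other HIF targets below) in the 11 libraries (columns, ordered by treatment); colour is log2(FPKM + 1) minus the gene's mean over the 10 libraries other than vehicle 2. Vehicle 2 is blue in nearly every row, the OPG-Fc columns are mostly pale blue and the palbociclib columns mostly pale red.

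Without vehicle 2, levels per length of transcript ran from 4.57 to 4019 FPKM across the 30 genes. Gapdh, whose enzyme reduces NAD+ at the middle of the pathway, was the most abundant of the 30 at 2108 to 4019 FPKM, followed by mean level by Pkm (pyruvate kinase, 901 to 1318), Aldoa (aldolase, 657 to 1239) and Ldha (lactate dehydrogenase A, 695 to 1065). Those 3 ranges overlap, so their order is not fixed from tumour to tumour. At the low end stood Pfkfb4 (4.57 to 9.05), Ak4 (5.68 to 13.8) and Pfkfb3 (6.69 to 19.0). The 2 Pfkfb genes encode bifunctional enzymes that set fructose 2,6-bisphosphate, the activator of phosphofructokinase, and Ak4 encodes a mitochondrial adenylate kinase. Among paralogues, Pfkl (79.6 to 133) exceeded Pfkp (25.5 to 39.3), Aldoa exceeded Aldoc (16.9 to 48.6) and Hk1 (36.2 to 57.8) exceeded Hk2 (13.6 to 28.2) in each library. Highest over lowest level ranged from 1.46-fold for Pkm to 4.32-fold for Adm, the vasodilator peptide adrenomedullin. Gapdh, Ldha, Pgk1, Tpi1, Pgam1, Aldoa and Pkm have near-identical copies in the genome, and Eno1 (enolase) has the copy Eno1b, so their levels depend on how the authors' counting divided shared reads.

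Most of the 30 genes were higher in palbociclib than in OPG-Fc tumours, and 7 passed the test once vehicle 2 was left out. Of the 30 genes, 20 were higher in all 3 palbociclib libraries than in any OPG-Fc library, 3 were lower in all, and 7 did not separate the groups. Among all genes tested, the groups failed to overlap in 33.1%, with 11.3% higher and 21.8% lower. The median log2 fold change was 0.34 for the 18 glycolytic genes and 0.50 for the 12 other HIF targets, beside -0.04 over all genes. A separate list of 33 further HIF targets, described below, had a median of 0.12. With all 11 libraries, limma's moderated test with Benjamini-Hochberg adjustment called none of the 30 (2 had an unadjusted p under 0.05), and it called 0.91% of all genes. Shares of all genes called refer to the adjusted threshold. For counts at an unadjusted p under 0.05, here and in all comparisons below, the share of all genes at that cut was not computed. Without vehicle 2 the test called 7 of the 30, against 10.3% of all genes: 5 higher, where 1.15% of all genes were called higher, and 2 lower, where 9.13% were called lower. The fold changes use no vehicle library, which enters only through the spread pooled over groups. A vehicle tumour left alone in its group adds nothing to that spread. Leaving out vehicle 1 in place of vehicle 2 gave the same count, but this follows largely from the design and is no separate check. Both groups are treated, so the direction alone does not say which of them departed from untreated tumours. The following values and adjusted p-values are from limma without vehicle 2, and fold changes are on the log2(FPKM + 1) scale.

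Egln3 encodes PHD3, a prolyl hydroxylase that both acts on HIF alpha and is itself induced by HIF. It measured 57.3, 61.8 and 76.8 FPKM in the OPG-Fc tumours, 91.1, 112 and 135 with palbociclib, 85.2, 94.7 and 94.6 in the combination, and 139 in vehicle 1. The OPG-Fc tumours were the lowest of these, and vehicle 1 was above every treated tumour. Palbociclib exceeded OPG-Fc by 0.77 ± 0.16 (log2 ± SE, adjusted p 0.0141). Ndrg1, a stress-responsive gene widely used as a hypoxia marker, measured 254, 226 and 238 FPKM with OPG-Fc, 397, 408 and 427 with palbociclib, 236, 349 and 216 in the combination, and 455 in vehicle 1. The combination overlapped OPG-Fc, whereas the palbociclib libraries lay close together above both. The difference between palbociclib and OPG-Fc was 0.78 ± 0.17 (adjusted p 0.0169). Pdk1 encodes the kinase that switches off pyruvate dehydrogenase and so keeps pyruvate out of the citric acid cycle. It measured 10.1, 11.8 and 10.8 FPKM with OPG-Fc, 17.7, 15.6 and 20.5 with palbociclib, 12.9, 13.0 and 10.6 in the combination, and 17.4 in vehicle 1. It showed the smallest adjusted p of the 30 (0.67 ± 0.13, adjusted p 0.012), and again the combination overlapped OPG-Fc and not palbociclib.

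Of the glycolytic enzymes, Pfkl and Pgk1 passed. Pfkl, the liver-type phosphofructokinase and the main form here, measured 79.6, 96.2 and 90.3 FPKM with OPG-Fc, 122, 133 and 125 with palbociclib, 103, 119 and 106 in the combination, and 106 in vehicle 1. The 3 treated groups did not overlap one another, and the combination lay between. Palbociclib exceeded OPG-Fc by 0.51 ± 0.11 (adjusted p 0.0161). Pgk1, phosphoglycerate kinase, which makes the first ATP of the pathway and carries 2 cores in the promoter above, measured 473, 541 and 512 FPKM with OPG-Fc, 640, 750 and 740 with palbociclib, 680, 755 and 673 in the combination, and 652 in vehicle 1. Here the palbociclib and combination tumours shared a range that OPG-Fc tumours did not reach (palbociclib over OPG-Fc 0.48 ± 0.12, adjusted p 0.0324). Ldha, which turns pyruvate into lactate and has 3 cores upstream, measured 695, 818 and 750 FPKM with OPG-Fc, 904, 1018 and 917 with palbociclib, 919, 1065 and 875 in the combination, and 904 in vehicle 1. The OPG-Fc tumours were again the lowest, but its difference (0.33 ± 0.13) did not pass (adjusted p 0.151). Slc2a1, encoding the glucose carrier GLUT1, was also higher with palbociclib without passing, with 106, 88.5 and 96.1 FPKM under OPG-Fc and 121, 162 and 135 under palbociclib (0.51 ± 0.22, adjusted p 0.198). Its combination values of 101, 155 and 76.8 overlapped both groups, with tumour 3 below every OPG-Fc tumour, and vehicle 1 was at 159.67.

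The 2 genes called lower with palbociclib stand on other branches. P4ha2, which hydroxylates prolines of collagen, measured 29.0, 23.6 and 24.9 FPKM with OPG-Fc, 18.6, 18.8 and 12.6 with palbociclib, 15.8, 13.0 and 16.3 in the combination, and 26.4 in vehicle 1. Every tumour given palbociclib, alone or combined, lay below vehicle 1 and the OPG-Fc tumours, and the difference from OPG-Fc was -0.62 ± 0.17 (adjusted p 0.0442). Its paralogue P4ha1 was 0.21 ± 0.11 higher (adjusted p 0.283). Pfkfb4 measured 7.55, 9.05 and 8.79 FPKM with OPG-Fc, 6.57, 4.57 and 5.15 with palbociclib, 6.90, 6.14 and 6.62 in the combination, and 5.41 in vehicle 1, so that OPG-Fc tumours were the high group (-0.57 ± 0.14, adjusted p 0.0313). Pfkfb3 was likewise highest with OPG-Fc, with 19.0, 17.0 and 15.04 FPKM under OPG-Fc, 8.54, 11.3 and 10.4 under palbociclib and 11.6, 12.2 and 6.69 in the combination, beside 13.2 in vehicle 1, and just missed the threshold (-0.70 ± 0.21, adjusted p 0.0615). These Pfkfb genes and P4ha2 are the 3 genes lower in all palbociclib libraries.

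**Figure D2:**
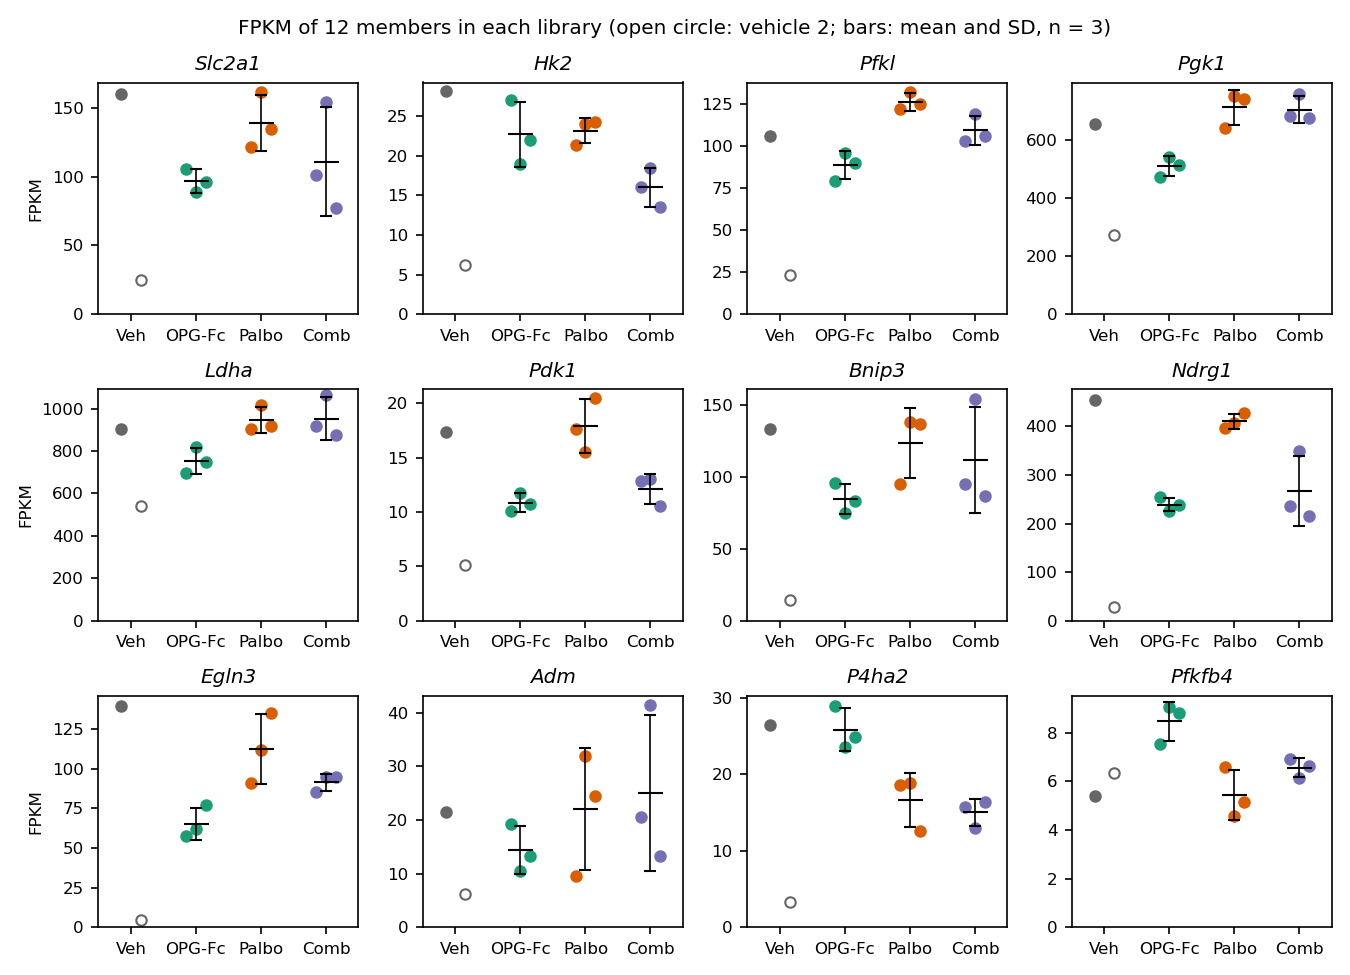
FPKM (linear axes from 0) of 12 of the genes in each library by treatment; bars are the mean and SD of 3 tumours, the open circle is vehicle 2. Palbociclib points sit above OPG-Fc points for Pfkl, Pgk1, Ldha, Pdk1, Ndrg1, Egln3 and Slc2a1 and below them for P4ha2 and Pfkfb4, while Hk2, Bnip3 and Adm overlap.

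Among the genes that did not pass, Bnip3, a mitochondrial receptor for mitophagy, measured 95.7, 74.7 and 83.4 FPKM with OPG-Fc against 95.4, 138 and 137 with palbociclib, overlapping through palbociclib tumour 1. Hk2, the inducible hexokinase, was at 27.1, 19.0 and 22.1 against 21.4, 24.0 and 24.3, a difference of 0.04 ± 0.15. Adm was at 19.3, 10.5 and 13.3 against 9.58, 32.0 and 24.6, the widest spread of the set. None of these 3 separated the groups. Other differences ranged from -0.35 for Slc16a3, the lactate exporter MCT4, to 0.78 for Aldoc, with Ddit4, an inhibitor of mTOR signalling, at 0.69. The calls depended on which libraries were kept, and the share of all genes called follows each count. Without palbociclib tumour 3, 0 of the 30 were called (5.87%), and without OPG-Fc tumour 1 only Ndrg1 was (6.33%). Leaving out OPG-Fc tumour 2 gave 3 (Aldoc, Pfkl and Pdk1, 7.46%), and OPG-Fc tumour 3 also 3 (Egln3, Pfkl and Pdk1, 8.08%). By contrast, 7 were called without palbociclib tumour 1 (6.73%) and 6 without tumour 2 (9.46%). Leaving out combination tumour 1, 2 or 3 gave 5 (9.09%), 7 (9.67%) or 9 (13.2%). Quantile scaling gave 3 (Egln3, Pfkl and Pdk1, 8.63%).

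Several cell type markers moved with this contrast. In every palbociclib tumour all 9 epithelial markers exceeded their level in every OPG-Fc tumour (2 of 9 passed), with sums of 3129 to 3577 FPKM against 2384 to 2510. Fibroblast markers were lower in 7 of 8 without overlap (7 passed; sums 521 to 689 against 1773 to 2614), adipocyte markers in 8 of 8 (7 passed; 64.9 to 106 against 799.72 to 2514), endothelial markers in 7 of 9 (7 passed; 94.6 to 111 against 169 to 194) and macrophage markers in 8 of 9 (7 passed; 750.36 to 1089.86 against 1771 to 1876). None of those markers was at 0 in either group. B and T cell markers were lower in 5 of 10 (1 passed, sums 11.6 to 19.4 against 28.2 to 865), with Ms4a1 at 0 in palbociclib tumours 1 and 3. The sum of 865 was that of OPG-Fc tumour 2 alone, with OPG-Fc tumours 1 and 3 at 28.2 and 33.5. Of 10 skin markers 3 were higher without overlap (1 passed), with sums of 1001 and 836 FPKM in palbociclib tumours 1 and 3, 11.2 in tumour 2 and 8.94 to 17.8 under OPG-Fc, where Krt1 was at 0 in tumours 1 and 2 and Krtdap and Lor in tumour 2. Skeletal muscle, a tissue with its own strong glycolysis, did not separate the groups in any of its 10 markers (101 to 300.01 against 64.1 to 390). The part of these cell types in the differences above was not tested.

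**Figure D3:**
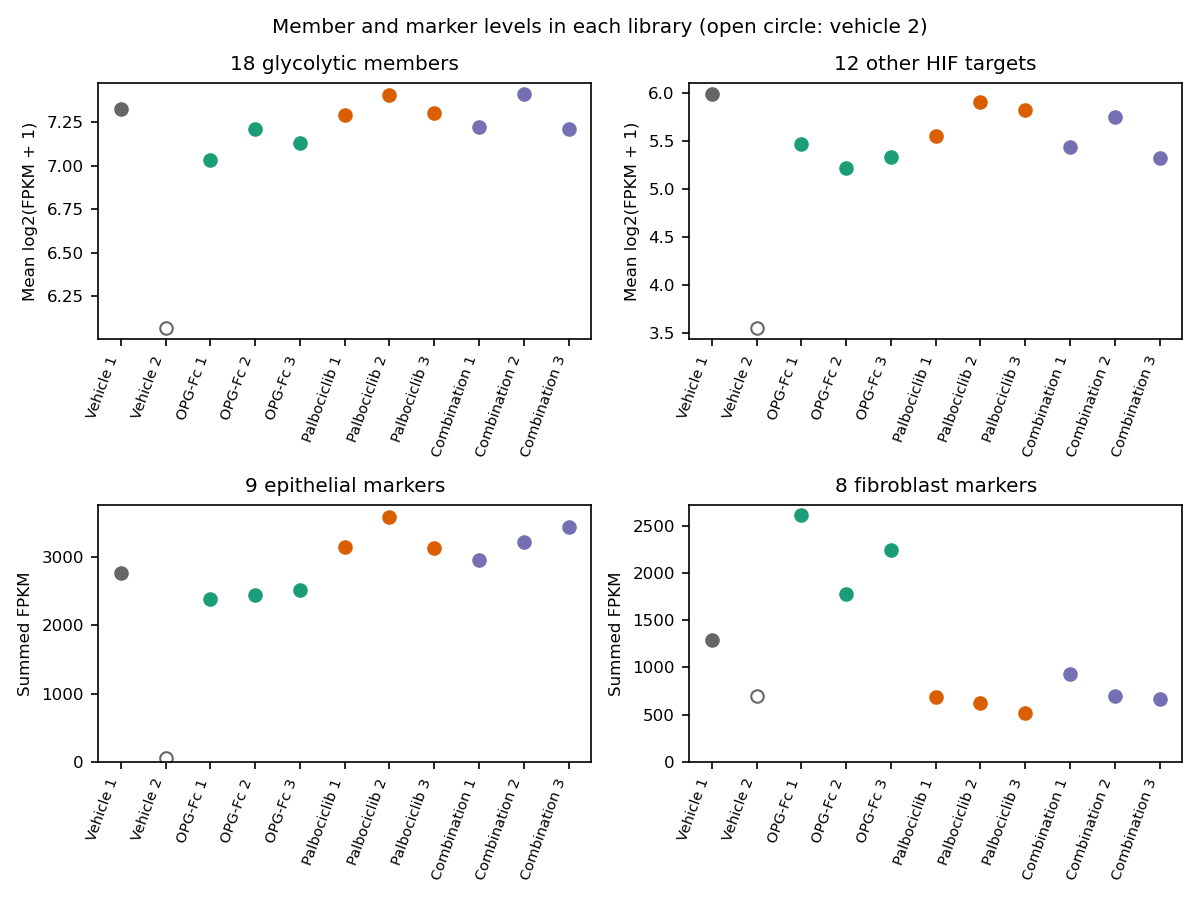
Each point is one library: mean log2(FPKM + 1) of the 18 glycolytic genes and of the 12 other HIF targets (top), and summed FPKM of 9 epithelial and 8 fibroblast markers (bottom), by treatment; the open circle is vehicle 2. OPG-Fc libraries have the lowest epithelial sums after vehicle 2 and the highest fibroblast sums, and their HIF target means (5.22 to 5.47) lie below those with palbociclib (5.55 to 5.91).

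Combination tumours were compared with OPG-Fc tumours to ask what palbociclib added. P4ha2, lower in the combination, was the only one of the 30 to pass, and only without vehicle 2. In all, 13 genes were higher without overlap and 5 lower, where 38.8% of all genes did not overlap (15.3% higher, 23.5% lower). Of the 13, 10 are glycolytic: Gpi1, Pfkl, Aldoa, Aldoc, Tpi1, Gapdh, Pgk1, Pgam1, Eno1 and Ldha, enzymes of steps between glucose 6-phosphate and lactate, and the other 3 are Egln1, Egln3 and Ankrd37. Hk2, Pfkfb3, Pfkfb4, P4ha1 and P4ha2 were the 5 lower. The median log2 fold change was 0.32 for glycolytic genes and 0.20 for the 12 other HIF targets, beside -0.07 over all genes. A separate list of 33 further HIF targets, described below, had a median of -0.27, with 12 genes positive and 21 negative. Under quantile scaling the glycolytic median turned to -0.03, with 8 of 18 genes positive where 12 had been. Under median-of-ratios scaling it was 0.39, with 12 of 18 positive. The direction therefore depends on which scaling is used.

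By limma's test with all 11 libraries none of the 30 passed between combination and OPG-Fc (3 with an unadjusted p under 0.05; 0.0994% of all genes called). Without vehicle 2, P4ha2 alone passed, lower by -0.74 ± 0.17 (log2, adjusted p 0.0419), where 4.7% of all genes were called (0.987% higher, 3.72% lower). The call was lost when any OPG-Fc or any combination tumour, or palbociclib tumour 1, was left out, and with no filter, quantile or median-of-ratios scaling, the replicate number as a block, or same-numbered columns averaged. Just outside the threshold stood Pgk1 at 0.47 ± 0.12 (adjusted p 0.0541) and Aldoa, at 657, 840 and 775 FPKM under OPG-Fc and 997, 1239 and 1136 in the combination (0.57 ± 0.15, adjusted p 0.0545). Gapdh measured 2108, 2785 and 2321 FPKM under OPG-Fc and 3200, 3628 and 4019 in the combination (0.59 ± 0.16, adjusted p 0.0603), and its fold change turned to -0.04 under quantile scaling. The 21 genes with a positive fold change had a median transcript length of 1964.5 bases and the 9 with a negative one 3402. Epithelial marker sums in the combination (2948.5 to 3428) again exceeded those of OPG-Fc tumours, with 4 of 9 markers not overlapping, and all 8 fibroblast markers were lower without overlap (6 passed; 669.9 to 928), as were 7 of 9 endothelial markers (6 passed; 102 to 123) and 6 of 8 adipocyte markers (3 passed; 104 to 678). With a correction for transcript length and GC content the glycolytic median was 0.20, 21 of 30 genes were still positive, and 3 were called without vehicle 2 (4.64% of all genes). The part of cell types in these differences was not tested.

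Combination tumours were compared with palbociclib tumours to ask what OPG-Fc added. No gene was higher without overlap and 8 were lower (20.7% of all genes did not overlap, 13.7% higher and 7.04% lower): the hexokinases Hk1 and Hk2, Pfkl, and 5 other HIF targets, Pdk1, Ndrg1, Ak4, P4ha1 and Ddit4. None of the 30 passed limma's test with all libraries (0 with an unadjusted p under 0.05) or without vehicle 2 (6 with one), and the tool called 0% of all genes in either fit. P4ha1, the catalytic subunit of the main collagen prolyl hydroxylase, had the smallest p. It measured 61.4, 63.8 and 59.0 FPKM with palbociclib, 45.2, 44.1 and 39.4 in the combination, 55.8, 46.9 and 56.4 with OPG-Fc and 75.95 in vehicle 1. Combination tumours were below all others but vehicle 2 (14.5 FPKM), at -0.51 ± 0.11 against palbociclib (adjusted p 0.0888). Pdk1 followed at -0.52 ± 0.13 (adjusted p 0.117) and Ndrg1 at -0.65 ± 0.17 (adjusted p 0.118). Hk2 measured 16.1, 18.5 and 13.6 FPKM in the combination, below all other tumours but vehicle 2 (-0.51 ± 0.15 against palbociclib, adjusted p 0.162). The lower glycolytic enzymes did not share this: Pgk1, Pgam1 and Ldha differed by -0.01 ± 0.12, -0.01 ± 0.14 and 0.01 ± 0.13. Medians were -0.01 for glycolytic genes and -0.22 for other HIF targets, beside 0.02 over all genes. Macrophage markers were higher in the combination in 6 of 9 without overlap (sums 1224 to 2367 FPKM against 750.36 to 1089.86) and adipocyte markers in 4 of 8 (104 to 678 against 64.9 to 106), and their part was not tested.

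**Figure D4:**
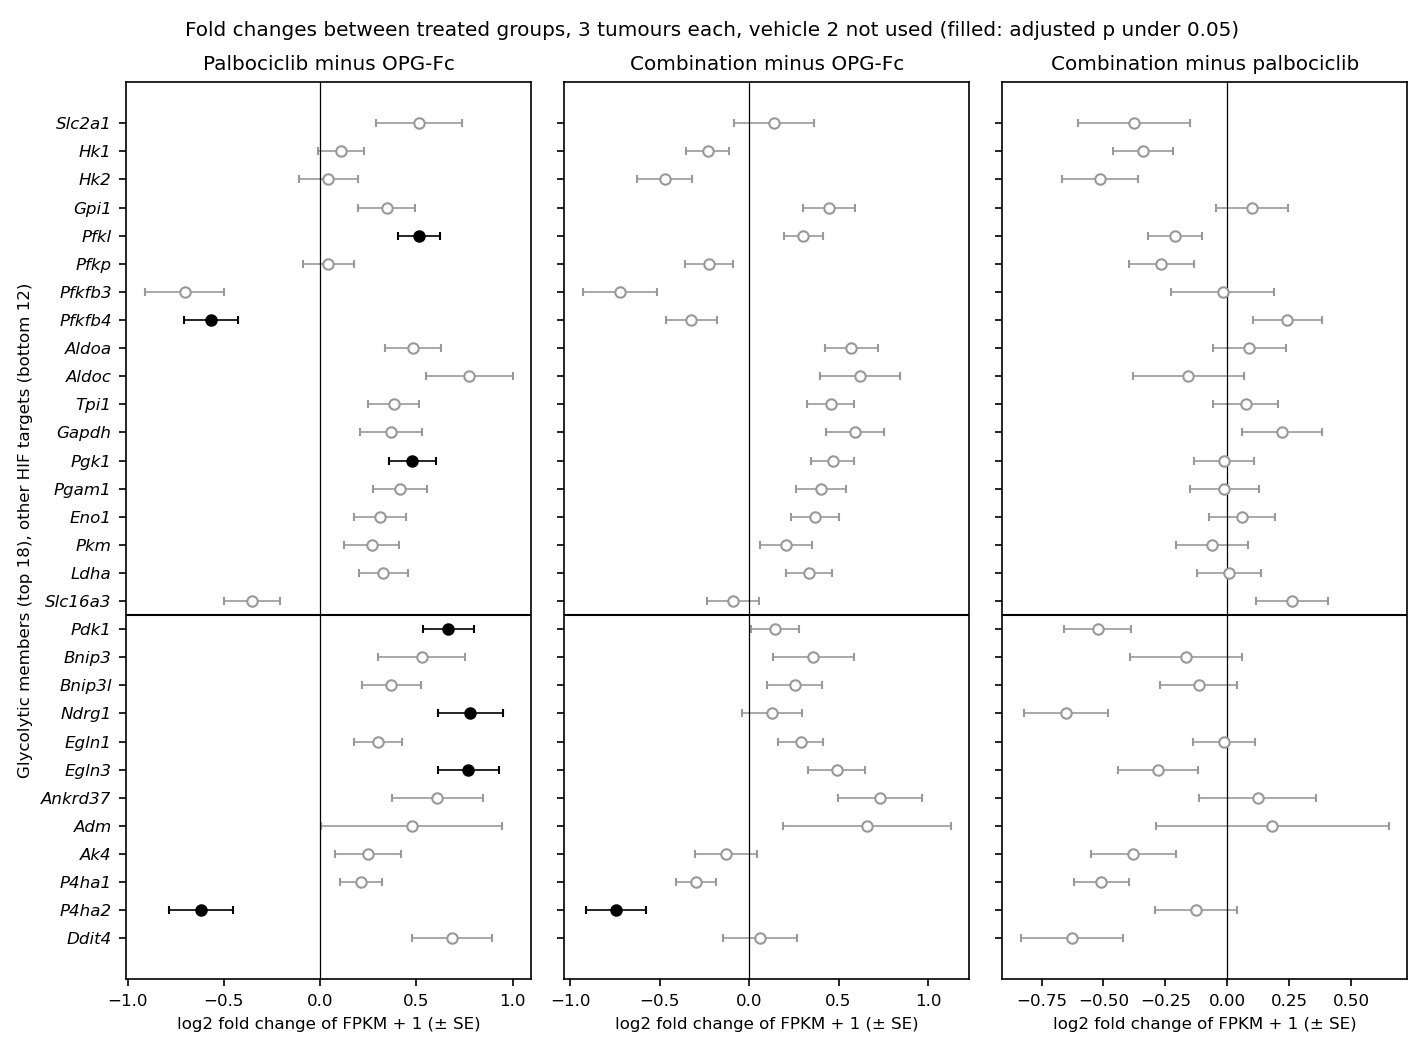
Log2 fold change of FPKM + 1 with its SE for each of the 30 genes in the 3 comparisons among treated groups of 3 tumours, from the fit without vehicle 2; filled points have an adjusted p under 0.05. Palbociclib minus OPG-Fc has 7 filled points, combination minus OPG-Fc has 1 (P4ha2) and combination minus palbociclib none.

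Comparisons with vehicle depend on which vehicle tumour is read. With both, the median log2 fold change of the glycolytic genes was 0.74 with palbociclib, 0.44 with OPG-Fc and 0.72 in the combination, and that of the other HIF targets was 0.84, 0.56 and 0.59, beside -0.04, 0.04 and -0.01 over all genes. None of the 30 passed limma's test in any of them, and 0% of all genes did. An unadjusted p under 0.05 was found for 10, 2 and 10 of the 30, and the share of all genes at that cut was not computed. The smallest p belonged in each case to Tpi1, triose phosphate isomerase, at 374 and 148 FPKM in the vehicle tumours, 392, 471 and 423 with OPG-Fc, 517, 636 and 527 with palbociclib and 532, 623 and 610.03 in the combination. Both vehicle tumours lay below all treated ones. Its fold changes were 1.24 ± 0.32 with palbociclib (adjusted p 0.158), 0.86 ± 0.32 with OPG-Fc (adjusted p 0.471) and 1.31 ± 0.32 in the combination (adjusted p 0.066). Next came Pfkl (1.32) and Pfkfb3 (-0.98) with palbociclib, both at an adjusted p of 0.158, and Gapdh (0.72, adjusted p 0.112) and Aldoa (0.84, adjusted p 0.113) in the combination. In the OPG-Fc comparison Pfkfb4 (0.46, adjusted p 0.471) and P4ha2 followed. P4ha2 stood at 1.30 with both vehicle tumours and at -0.04 with vehicle 1 alone.

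Read against vehicle 1 alone, the number of genes with a positive fold change went from 27 to 3 of 30 with OPG-Fc, from 28 to 12 in the combination and from 27 to 12 with palbociclib. The OPG-Fc medians became -0.26 for glycolytic genes and -0.64 for other HIF targets, and in the combination they became 0.06 and -0.55. With palbociclib they were 0.07 and -0.15. Quantile scaling turned the glycolytic medians of palbociclib and the combination to -0.15 and -0.35, and a correction for transcript length and GC content to -0.01 and -0.11, so those 2 have no settled direction. A single control tumour is assumed here to vary like the treated groups, and again none of the 30 passed, where limma called 0.00765% of all genes with OPG-Fc, 0.0612% in the combination and 0% with palbociclib (10, 10 and 3 of the 30 had an unadjusted p under 0.05). The smallest adjusted p-values were for Egln3 with OPG-Fc (-1.09 ± 0.23, adjusted p 0.0977), P4ha1 in the combination (-0.81 ± 0.16, adjusted p 0.0716) and Tpi1 with palbociclib (0.57 ± 0.19, adjusted p 0.399). After these came Ndrg1 and Pdk1 with OPG-Fc (-0.93 and -0.63), Hk2 and Tpi1 in the combination (-0.79 and 0.65), and Slc16a3 and P4ha2 with palbociclib (-0.62 and -0.66). Vehicle 1 was the highest of the 10 libraries for 6 of the 30 genes, 4 of them HIF targets (12.1% of all genes), and all 3 OPG-Fc tumours lay below the 7 others for 10 of the 30, 8 of them glycolytic (2.45% of all genes), and above them for Pfkfb3 and Pfkfb4 (9.59% of all genes). These counts were chosen after the values were seen. The interaction, which asks whether palbociclib acted differently with and without OPG-Fc, called none of the 30 with all libraries or without vehicle 2. In the latter fit 2 had an unadjusted p under 0.05, Egln3 (0.81 ± 0.28) and Ankrd37 (1.11 ± 0.41), both at an adjusted p of 0.951, and 0% of all genes were called.

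Tumours of one group differed in this programme, and counts are given for the 2 sets of genes apart. Combination tumour 2 was the highest of its group for 21 of the 30 genes, among them Adm (41.4 FPKM against 20.5 and 13.3), Bnip3 (154 against 94.8 and 86.9) and Ndrg1. It was the highest of the 3 for 24.1% of all genes. Palbociclib tumour 1 was the lowest of its group for 17 of the 30, 8 of them HIF targets, beside 29.4% of all genes, with Adm at 9.58 and Ankrd37 at 16.2 FPKM against 32.5 and 27.0. Palbociclib tumours 1 and 3 both had high skin markers, and tumour 3 was the lowest of its group for 8 of the 30, beside 27.4% of all genes. The part of skin in these levels was not tested. OPG-Fc tumour 1 was the highest for 9 of 12 HIF targets and the lowest for 13 of 18 glycolytic genes, and OPG-Fc tumour 2 was the highest for 13 of 18 glycolytic genes and the lowest for 8 of 12 HIF targets. Over all genes, OPG-Fc tumour 1 was the highest for 34.7% and the lowest for 43.1%, and OPG-Fc tumour 2 for 42.4% and 33.3%.

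The surrounding pathway was read from lists of genes with related roles, without vehicle 2. Of the HIF subunits and regulators (7 tested), Epas1 alone passed between palbociclib and OPG-Fc. It encodes HIF-2 alpha, prominent in endothelium and some stromal cells, and measured 13.15, 10.04 and 9.96 FPKM with OPG-Fc, 4.05, 2.56 and 2.89 with palbociclib and 5.19, 4.01 and 3.83 in the combination. The OPG-Fc tumours stood above the rest (-1.54 ± 0.18 with palbociclib, adjusted p 0.00115; -1.17 ± 0.18 in the combination, adjusted p 0.0146). Hif1a, encoding HIF-1 alpha, which is controlled mainly as protein, did not pass (-0.40 ± 0.31, adjusted p 0.49 with palbociclib). Of the 33 further HIF targets, 18 had a positive and 15 a negative fold change in palbociclib against OPG-Fc tumours. Without overlap 10 were higher and 12 lower, where 11.3% of all genes were higher and 21.8% lower. The test called 2 of them higher and 6 lower, where 1.15% of all genes were called higher and 9.13% lower. The higher ones were Fam162a, a mitochondrial protein gene (156, 143 and 149.67 FPKM with OPG-Fc, 222, 281 and 256 with palbociclib; 0.75 ± 0.13, adjusted p 0.00579), and Car9 (60.5, 69.8 and 76.95 against 123, 91.5 and 88.1; 0.53 ± 0.15, adjusted p 0.0476). Combination tumours had Car9 at 72.3, 76.8 and 71.4 FPKM, inside the OPG-Fc range, and vehicle 1 had 89.8. The lower ones included Angptl4, Plod1, Loxl2, Selenbp1 and Gpr146, of which Plod1 and Loxl2 modify collagen. In the combination against OPG-Fc, 1 further target was called higher (Fam162a, 0.73 ± 0.13, adjusted p 0.0219) and 1 lower (Plod1, -0.67 ± 0.12, adjusted p 0.0231). Of all genes, 0.987% were called higher and 3.72% lower. Without overlap 3 of the 33 were higher and 10 lower there, where 15.3% of all genes were higher and 23.5% lower.

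Among other isoforms and side branches, the genes that passed were lower than with OPG-Fc, as were most genes called over the whole table (9.13% lower and 1.15% higher with palbociclib, 3.72% and 0.987% in the combination). Of 12 other glycolytic isoforms, 0 were called higher and 3 lower with palbociclib than with OPG-Fc: Slc2a3 (the carrier GLUT3, -0.78 ± 0.14, adjusted p 0.00634), Slc2a4 (the insulin-responsive carrier GLUT4 of fat and muscle) and Pfkfb1. Slc2a3 was also lower in the combination (-0.90 ± 0.14, adjusted p 0.015). Of 4 gluconeogenic genes, 2 were lower with palbociclib, Fbp1 and Pck1, the latter also a gene of adipocytes, at 17.1, 21.2 and 4.17 FPKM with OPG-Fc against 0.53, 0.29 and 0.23 (-3.25 ± 0.49, adjusted p 0.00339). The adipocyte marker sums given above moved in the same direction, and their part was not tested. Of 9 glycogen genes 2 were lower, Pygl, glycogen phosphorylase (-1.52 ± 0.20, adjusted p 0.00184), and Ppp1r3c, and of 12 genes that admit pyruvate to mitochondria 1 was lower, Mpc1, a subunit of the pyruvate carrier (-0.73 ± 0.19, adjusted p 0.0362). None of 7 pentose phosphate genes passed (2 with an unadjusted p under 0.05), the smallest adjusted p being that of Taldo1 (0.0866). In the combination against OPG-Fc, Pck1 (-2.64 ± 0.49, adjusted p 0.0247) and Pygl (-0.90 ± 0.20, adjusted p 0.0396) passed, and no gene of these lists passed between combination and palbociclib. There the smallest adjusted p among them was that of Bhlhe41, a HIF-induced repressor, at -0.80 ± 0.16 (0.0801).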

How the data were processed

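Poly(A) RNA of 11 tumours was sequenced, and the authors deposited 1 table of FPKM per gene and library; the submitters' processing notes name HISAT, Bowtie2 and RSEM and the build GRCm39 (mm39), with no versions. The deposited FPKM values are rounded to steps of 0.01 and come without counts, so the depth behind each value is unknown and no counting interval is given. From these values log2(FPKM + 1) was computed, and a gene was tested where 2 or more libraries reached 1 FPKM. All libraries entered a single limma 3.58.1 fit by group (R 4.3.3) with a variance trend, and p-values were adjusted over all genes by Benjamini-Hochberg with a threshold of 0.05. The same fit was made without vehicle 2. Both fits were tested on simulated data, with 100 genes changed by 0.5 log2. Without vehicle 2, 18 of these were recovered in palbociclib against OPG-Fc and 16 in combination against OPG-Fc. With all 11 libraries 5 and 0 were recovered, so many changes of that size would not pass. The members and the gene lists were chosen with earlier results of these data known. Every member that passed was named, or else the 3 with the smallest p, with a fixed set given by library and, of other lists, genes that passed or had the smallest p, except some that are not reported here. Combination tumours 1 and 2 share a first number in their column names, as do OPG-Fc tumours 2 and 3, whose meaning is not given. Replicate numbers did not pair the libraries (correlations of -0.41 to 0.53 over 15 pairs of the same number, 5 of them over 0.1). Transcript lengths came from GENCODE M21 and covered 96.9% of the genes tested.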

Additional observations from a re-analysis of the deposited data

How the results depend on the processing

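All values here leave out or change 1 choice at a time. With all 11 libraries the count of genes called stayed at 0 under each alternative except leaving out a library: against vehicle it ranged from 0 to 26 (palbociclib), 22 (OPG-Fc) and 27 (combination), and the interaction from 0 to 21, each high value coming from leaving out vehicle 1, so that vehicle 2 is the only control; combination against OPG-Fc ranged from 0 to 1 and palbociclib against OPG-Fc from 0 to 7, the counts without vehicle 1 or without vehicle 2. For the fits with vehicle 2 as the only control, the share of all genes called is not given here. Vehicle 2 lay below all other libraries for 29.3% of all genes tested and above them for 34.8%. The high counts against vehicle and for the interaction are therefore no result about these genes in particular. Leaving out single libraries moved the glycolytic median from 0.071 to 1.39 (palbociclib), -0.26 to 1.00 (OPG-Fc) and 0.057 to 1.37 (combination) against vehicle, and the median of other HIF targets from -0.15 to 2.02, -0.64 to 1.76 and -0.55 to 1.75, and from 0.38 to 0.69 in palbociclib against OPG-Fc. Quantile scaling gave glycolytic medians of 0.57 (palbociclib) and 0.30 (combination) against vehicle, -0.025 for combination against OPG-Fc, -0.20 against palbociclib and 0.21 for palbociclib against OPG-Fc. A correction for transcript length and GC content, added after seeing the data, gave 0.58, 0.52, 0.20 and -0.12 for the first 4 of these. Leaving out palbociclib tumours 1 and 3 together, also added then, gave an HIF target median of 1.03 against vehicle and glycolytic medians of -0.10 for combination against palbociclib and 0.47 for palbociclib against OPG-Fc.

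Percentages here are the share of all genes called. Without vehicle 2, palbociclib against OPG-Fc (7 called, 10.3%) gave 3 under quantile scaling (8.63%) and 4 with same-numbered columns averaged (7.91%). The length and GC correction gave 10 (14.1%). Leaving out single libraries gave 0 (5.87%, without palbociclib tumour 3) to 9 (13.2%, without combination tumour 3). No count is given without palbociclib tumours 1 and 3, where 1 palbociclib tumour remains. Combination against OPG-Fc (1 called, 4.7%) gave 0 with no filter (3.87%), quantile (2.17%) or median-of-ratios scaling (3.48%), averaging (0.681%), or without palbociclib tumours 1 and 3 (1.17%). It gave 2 with no variance trend (5.44%), 3 with the length and GC correction (4.64%), and 0 to 1 without single libraries (0.176% to 6.15%). Combination against palbociclib (0 called) gave 1 with that correction, where 104 genes of the whole table were called. Without single libraries it gave 0 to 1 (1 without combination tumour 2), and the share of all genes is not given for these. Against vehicle 1 no counts are given here, as 1 control tumour remains. With the replicate number as a block, a pairing the data do not bear out, palbociclib against OPG-Fc gave 4 (7.77%) and combination against OPG-Fc gave 0 (1.55%). Among the genes named for each comparison by the stated rule, fold changes that turned were P4ha2 in OPG-Fc against vehicle (from -0.037 without vehicle 2 to 2.645 without vehicle 1) and, under quantile scaling, Gapdh in combination against vehicle (-0.0039) and against OPG-Fc (-0.043). The cause of these shifts was not tested. Unknown depth, groups of 2 or 3 tumours and values that lack a common total limit what could be detected.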
